A study of Mus musculus with 12 samples.

Results

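The liver X receptors (LXR) and the genes that move sterols out of and into intestinal cells were followed in RNA-seq libraries of mouse small intestinal crypts and colon tumors. The 9 genes are *Nr1h3* and *Nr1h2*, which encode LXRα and LXRβ, the cholesterol exporters *Abca1* and *Abcg1*, the sterol exporters *Abcg5* and *Abcg8*, the LXR targets *Mylip* and *Srebf1*, and the sterol importer *Npc1l1*. They are 9 of the 54532 genes in each table and were found by gene symbol. The set was chosen by the FPKM of *Nr1h3*, which are higher in the knockout libraries of both tissues, so the knockout contrast of *Nr1h3* is given as a description and was not tested. The comparison asks whether the other genes of the set differ between knockout and control alongside it.

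The study deleted ieCtnnb1, an enhancer of *Ctnnb1*, the gene of β-catenin, from the mouse germline. Of the 12 libraries, 6 are of small intestinal crypts, 3 labelled Wild type and 3 labelled ieCtnnb1KO, and 6 are of colon tumors, 3 labelled APCmin/+ and 3 labelled APCmin/+;ieCtnnb1KO. All mice were adult and untreated, and every tumor library carries the APCmin/+ allele, so the tumor controls are not wild type. Crypts were epithelium released with EDTA and passed through a strainer that holds villi back, whereas tumors were taken as whole tissue with their stroma and immune cells. The deletion is present in every cell of the knockout mice, and neither preparation isolates a single cell type. The legends of the study count its groups in mice, 3 in each group of either tissue. The authors deposited FPKM, the number of fragments on a gene divided by its length and by a size factor of the library, in a separate table for each tissue. Each crypt library held between 14457896 and 16074777 fragments on genes, with a median of 15768585, and each tumor library held between 14648696 and 16156712, with a median of 16052656. Values of a group are listed in the order of replicates 1, 2 and 3, and controls are Wild type in crypts and APCmin/+ in tumors.

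The labelled tissues and genotypes were checked against marker genes. Epithelial markers summed to 2853 to 3583 FPKM in crypt libraries and 2802 to 3678 in tumor libraries, with *Krt8* the most abundant of the 5 in both. Crypt libraries held between 18076 and 52309 FPKM of 6 Paneth cell markers and between 561 and 1007 FPKM of 4 stem cell markers, of which *Olfm4* was the most abundant. They also held 3702 to 9029 FPKM of 10 small intestinal enterocyte markers, led by *Fabp2*, and at most 0.883 FPKM of 4 endothelial markers. *Ctnnb1* was lower in each knockout library than in every control library of both tissues. Of all tested genes, 5.15% in crypts and 10.6% in tumors also lay wholly under the controls. The log2 difference of *Ctnnb1* was -0.28 ± 0.12 in crypts and -0.39 ± 0.13 in tumors (SE, n = 3 per group). Its limma adjusted p were 0.849 and 0.303, so limma did not call *Ctnnb1* in either tissue. Wild type crypt replicate 3 stood somewhat apart, with a mean correlation of 0.951 with the other 5 crypt libraries, against 0.959 to 0.965 for the rest.

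As background, LXRs are nuclear receptors that sit on DNA with a retinoid X receptor and are activated by oxysterols, the oxidized forms of cholesterol. When a cell is loaded with sterol they switch on genes for cholesterol export, for fatty acid synthesis and for removal of the LDL receptor. In the small intestine, enterocytes take up luminal cholesterol through NPC1L1, return plant sterols and part of the cholesterol through the ABCG5 and ABCG8 dimer, and load lipoprotein particles through ABCA1, while macrophages of the gut wall use ABCA1 and ABCG1 to shed cholesterol.

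*Nr1h3* (ENSMUSG00000002108, chromosome 2, 91184061 to 91202834, minus strand, GRCm38) encodes the receptor whose expression is strong in liver, gut and macrophages. Wild type crypts had 11.6, 12.01 and 14.3 FPKM of *Nr1h3*, and ieCtnnb1KO crypts had 17.4, 16.4 and 17.2. Every knockout library lay above every control library, and the knockout libraries were closer to each other than the controls were. Group means were 12.6 ± 1.47 and 17.0 ± 0.514 FPKM (SD, n = 3), a log2 difference of 0.42. In tumors the level was lower, with 3.61, 3.20 and 2.95 FPKM in APCmin/+ and 4.03, 5.48 and 5.28 FPKM in APCmin/+;ieCtnnb1KO, and knockout replicate 1 lay nearest to the controls. Group means were 3.26 ± 0.332 and 4.93 ± 0.786 FPKM (SD, n = 3), a log2 difference of 0.52. These values rest on 450 to 714 fragments per crypt library and 111 to 221 per tumor library. They chose the set and stand here without a test. In bulk tissue, fewer cells of a type and less RNA per cell cannot be told apart.

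*Nr1h2* (ENSMUSG00000060601, chromosome 7, 44549616 to 44553951, minus strand) encodes the receptor found in most cell types. Its level was 30.3, 29.4 and 31.8 FPKM in Wild type crypts and 36.5, 33.7 and 30.4 FPKM in ieCtnnb1KO crypts. In tumors it was 35.3, 38.3 and 34.0 FPKM in APCmin/+ and 40.4, 32.1 and 39.9 FPKM in APCmin/+;ieCtnnb1KO. The groups overlapped in both tissues. The log2 difference was 0.13 ± 0.12 (SE, n = 3 per group) in crypts, with a limma adjusted p of 0.909 (0.07 without ieCtnnb1KO replicate 1, 0.20 without ieCtnnb1KO replicate 3 and 0.05 under quantile normalization), and 0.06 ± 0.11 in tumors, with a limma adjusted p of 0.835, a direction that turns to -0.06 under quantile normalization. Within a library, *Nr1h2* exceeded *Nr1h3* by a factor of 2.23 to 2.62 in Wild type crypts and 1.77 to 2.09 in ieCtnnb1KO crypts, ranges that do not overlap. The factor was 9.77 to 11.9 in APCmin/+ tumors and 5.86 to 10.04 in APCmin/+;ieCtnnb1KO tumors, where the ranges overlap. These ratios share the *Nr1h3* values that chose the set and were not tested.

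**Figure D1:**
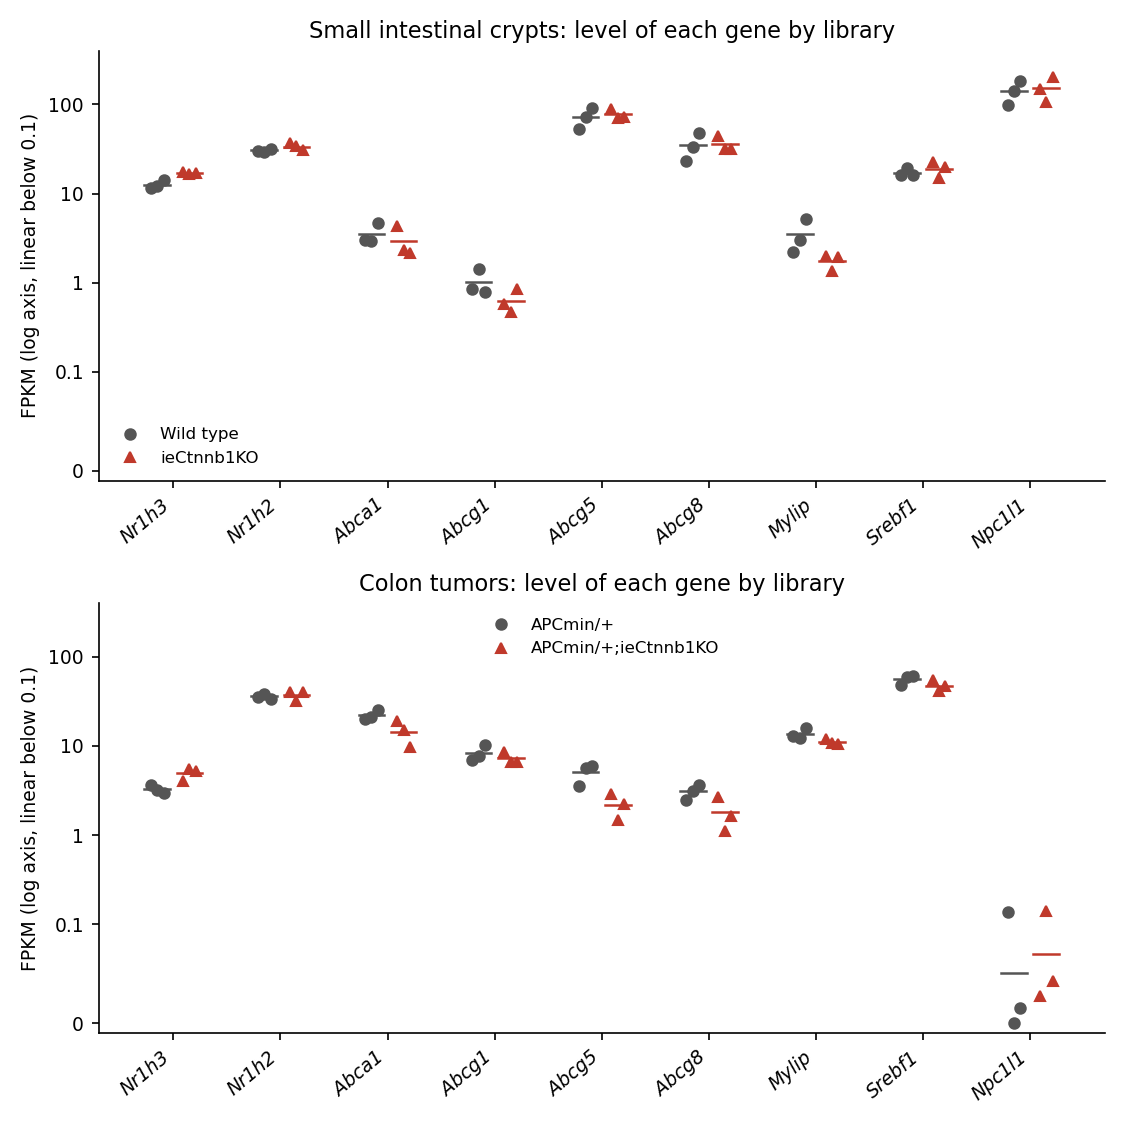
Level of each gene in FPKM (log axis, linear under 0.1) in each library, with crypts in the upper panel and tumors in the lower; circles are control libraries, triangles knockout libraries and short lines group means (n = 3). *Npc1l1* spans 97.6 to 203 FPKM in crypts and 0 to 0.140 FPKM in tumors, and *Srebf1* is the highest of the 9 genes in tumors.

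The other genes were mixed in crypts and mostly lower in the knockout tumors, where *Nr1h3* was higher. In crypts, 8 genes other than *Nr1h3* passed the filter of a mean of at least 0.5 FPKM over the 6 libraries, and 5 were above and 3 below a log2 difference of 0, with a median of 0.11, where all 14176 tested genes had a median of 0.01. Of the 5, *Npc1l1* turns to -0.01 under quantile normalization. In tumors 7 passed, of which 6 were below 0 and only *Nr1h2* was above it, turning to -0.06 under quantile normalization. Their median was -0.28, and all 16743 tested genes had a median of 0.01. *Npc1l1* had too little RNA in tumors to be tested.

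With limma, none of these genes had an adjusted p under 0.05 in either tissue, nor did any other gene, which makes the background 0% (0 of 14176 in crypts and 0 of 16743 in tumors). The voom fit on recovered fragments also called 0 genes in both tissues. The study itself used DESeq2 on read counts and reported pathways of genes lower and higher in the knockout tumors. The counts of 0 therefore belong to the fits used here. At an unadjusted p under 0.05, limma counted 829 genes in crypts (5.85%) and voom 805, and in tumors limma counted 2421 genes (14.5%) and voom 2541. Among the LXR genes, limma counted 1 of 8 in crypts, *Mylip*, and 4 of 7 in tumors, *Abca1*, *Abcg5*, *Abcg8* and *Mylip*, each of them lower in the knockout, and voom counted 1 and 3. In crypts, 0 of the 8 genes had each knockout library above all controls, against 6.79% of tested genes, and 1 had each knockout library under all controls, against 5.15%. In tumors, 0 of 7 lay wholly above, against 11.4% of tested genes, and 3 lay wholly under, against 10.6%. With a library left out, groups separate more often over all genes too. In crypts, *Abcg1* joined *Mylip* wholly under the controls without Wild type replicate 3, against 11.3% of all genes, and without ieCtnnb1KO replicate 3, against 10.3%, and *Abca1* joined it without ieCtnnb1KO replicate 1, against 8.47%, each a count of 2. The crypt count wholly above became 1 with *Nr1h2* without Wild type replicate 3, against 13.1%, and without ieCtnnb1KO replicate 3, against 12.4%, and 1 with *Srebf1* without ieCtnnb1KO replicate 2, against 11.6%. In tumors, the count wholly under became 5 without APCmin/+ replicate 1, against 19.2% of all genes, and 6 without APCmin/+;ieCtnnb1KO replicate 1, against 15.2%, and the count wholly above became 1 with *Nr1h2* without APCmin/+;ieCtnnb1KO replicate 2, against 20.1%. The lowest limma adjusted p among these genes was 0.823 in crypts and 0.269 in tumors, and over all alternatives it reached 0.429 and 0.162.

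**Figure D2:**
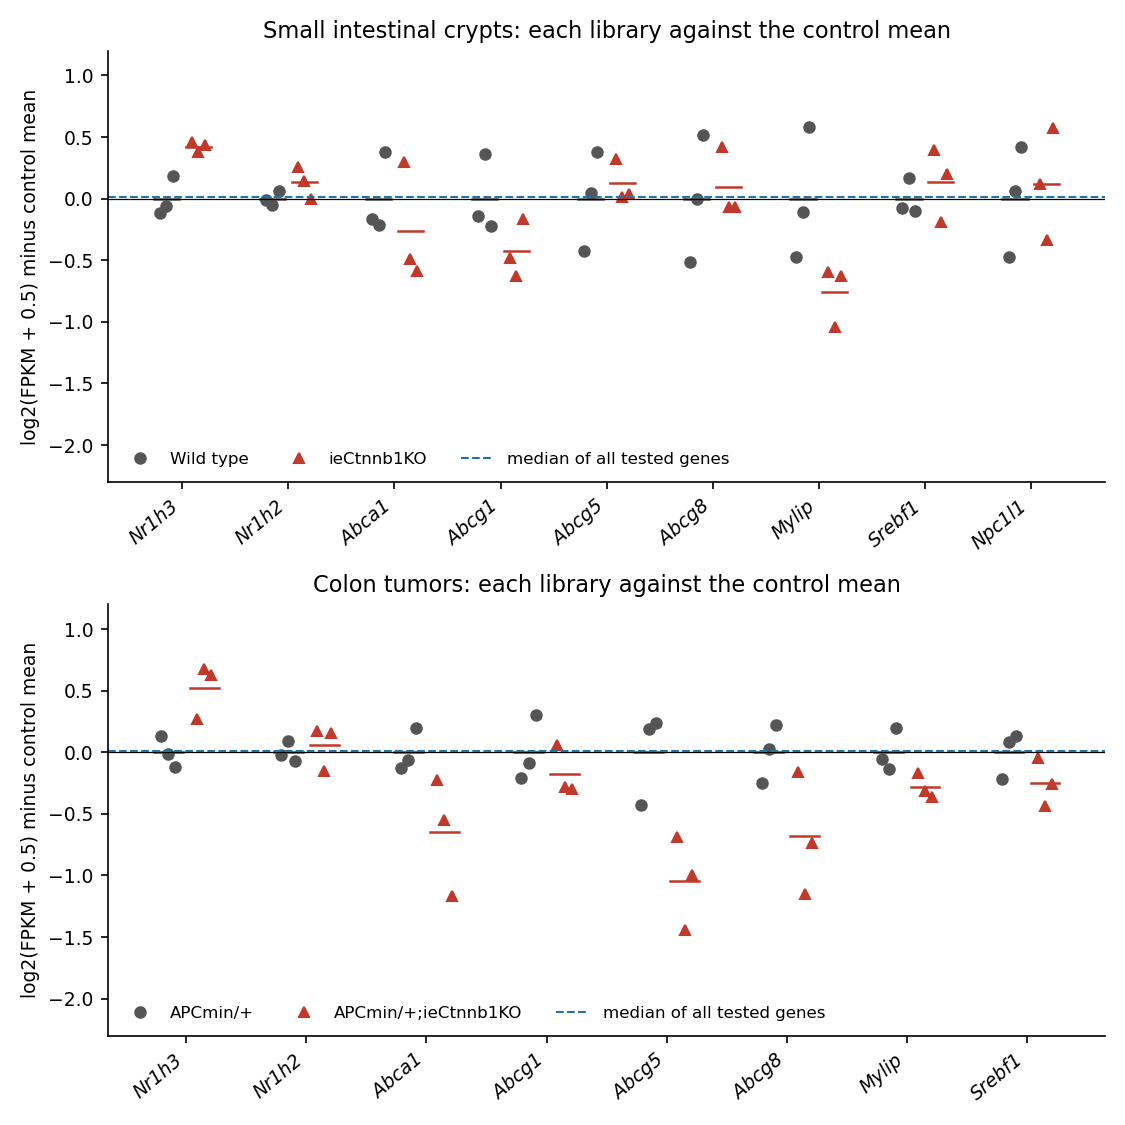
Difference of each library from the control mean on the scale of log2(FPKM + 0.5), for the genes tested in crypts (upper panel) and tumors (lower panel); circles are controls, triangles knockouts, short lines group means (n = 3) and the dashed line the median difference of all tested genes. *Nr1h3* is above the controls in both panels, and in tumors *Abca1*, *Abcg5* and *Mylip* lie under them in every knockout library.

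*Abca1* (ENSMUSG00000015243, chromosome 4, 53030787 to 53159895, minus strand) encodes the transporter that hands cholesterol and phospholipid to apolipoprotein A-I. APCmin/+ tumors had 20.3, 21.2 and 25.5 FPKM, and APCmin/+;ieCtnnb1KO tumors had 18.9, 15.0 and 9.63. Each knockout library was lower than every control, narrowly for replicate 1 and by the widest margin for replicate 3. The means were 22.3 ± 2.79 and 14.5 ± 4.67 FPKM (SD, n = 3). The log2 difference was -0.65 ± 0.24 (SE), with a limma adjusted p of 0.320, an unadjusted p of 0.0306, and an exact two-sided permutation p of 0.1, the smallest that 3 libraries against 3 can give. The log2 difference was -0.39 without knockout replicate 3 and -0.86 without knockout replicate 1. In crypts the gene was much less abundant, with 3.04, 2.90 and 4.65 FPKM in Wild type and 4.36, 2.31 and 2.13 FPKM in ieCtnnb1KO. Here the groups overlapped through ieCtnnb1KO replicate 1, which lay above Wild type replicates 1 and 2, while Wild type replicate 3 was the highest library. The log2 difference in crypts was -0.26 ± 0.28 (SE, n = 3 per group), with a limma adjusted p of 0.918, and with a library left out it ran from -0.07 (Wild type replicate 3) to -0.54 (ieCtnnb1KO replicate 1). The permutation p in crypts was 0.5.

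*Abcg1* (ENSMUSG00000024030, chromosome 17, 31057698 to 31115777, plus strand) encodes a transporter that passes cholesterol to HDL and is prominent in macrophages. Tumors had 6.99, 7.65 and 10.2 FPKM in APCmin/+ and 8.54, 6.62 and 6.53 FPKM in APCmin/+;ieCtnnb1KO, groups that overlapped. This came to a log2 difference of -0.17 ± 0.17 (SE, n = 3 per group), with a limma adjusted p of 0.644, and it was -0.02 without APCmin/+ replicate 3 and -0.29 without APCmin/+;ieCtnnb1KO replicate 1. In crypts *Abcg1* was close to the filter, at 0.858, 1.43 and 0.784 FPKM in Wild type and 0.574, 0.470 and 0.840 FPKM in ieCtnnb1KO, on 32 to 89 fragments a library. The crypt groups overlapped through knockout replicate 3, and the log2 difference was -0.42 ± 0.25 (SE, n = 3 per group) with a limma adjusted p of 0.887, running from -0.24 without Wild type replicate 2 to -0.71 by voom. Within each tumor library *Abca1* exceeded *Abcg1* by a factor of 2.51 to 2.90 in APCmin/+ and 1.47 to 2.26 in APCmin/+;ieCtnnb1KO, ranges that do not overlap. In crypts that factor ran from 2.03 to 7.59 with no separation of the groups.

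The promoters of *Abca1* and *Srebf1* are shown because both genes are textbook LXR targets and hold the same repeat near a start site. They come from the RefSeq promoter table (GRCm38.p6), which spans 250 bases before to 50 bases after a start, has 12 promoters for 8 of the 9 genes, and has no entry for *Abcg1*. The strict LXR repeat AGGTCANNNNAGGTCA, searched on both strands, was in 5 of 32851 promoters (0.0152%) and in 0 of these 12. The repeat GGTTANNNNNGGTCA, chosen after these promoter sequences had been seen, was in 16 of 32851 promoters (0.0487%) and in 2 of the 12. It reads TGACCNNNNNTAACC on the other strand, and both matches are in that reading. Capitals mark the match in each promoter, printed 5′ to 3′ on the strand of the gene. The *Abca1* promoter is at chr4:53159846-53160145 on the minus strand, with the match 67 to 53 bases before the start. The *Srebf1* promoter, that of the furthest downstream of 3 start sites, is at chr11:60210422-60210721 on the minus strand, with the match 182 to 168 bases before the start. A match describes letters in a window and does not show binding.
Abca1: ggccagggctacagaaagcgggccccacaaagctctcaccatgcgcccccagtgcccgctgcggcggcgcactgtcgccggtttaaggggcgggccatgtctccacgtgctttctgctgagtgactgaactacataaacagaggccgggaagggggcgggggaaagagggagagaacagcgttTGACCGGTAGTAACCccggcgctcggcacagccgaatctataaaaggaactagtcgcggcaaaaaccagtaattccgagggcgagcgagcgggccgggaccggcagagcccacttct
Srebf1: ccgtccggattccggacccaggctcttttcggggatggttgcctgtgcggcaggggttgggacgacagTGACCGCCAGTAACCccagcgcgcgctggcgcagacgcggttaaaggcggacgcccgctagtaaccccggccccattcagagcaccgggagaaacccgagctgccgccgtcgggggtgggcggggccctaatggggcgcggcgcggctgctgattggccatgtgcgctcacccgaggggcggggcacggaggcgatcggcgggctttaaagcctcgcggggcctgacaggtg

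*Abcg5* (ENSMUSG00000040505, chromosome 17, 84658234 to 84683011, minus strand) and *Abcg8* (ENSMUSG00000024254, chromosome 17, 84676302 to 84700333, plus strand) encode the subunits of a dimer that pumps sterols into the gut lumen. They lie head to head with 82 shared exon bases on opposite strands, and the promoter of *Abcg5* shares 209 bases with a promoter of *Abcg8*. APCmin/+ tumors had 3.53, 5.70 and 5.89 FPKM of *Abcg5*, and APCmin/+;ieCtnnb1KO tumors had 2.86, 1.49 and 2.22. All knockout libraries were lower than all controls, with control replicate 1 and knockout replicate 1 the closest. The means were 5.04 ± 1.31 and 2.19 ± 0.685 FPKM (SD, n = 3), on 65 to 255 fragments a library. Their log2 difference, -1.04 ± 0.26 (SE), was the widest of the set, with a limma adjusted p of 0.269, an unadjusted p of 0.00540 and an exact permutation p of 0.1. *Abcg8* had 2.50, 3.14 and 3.67 FPKM in APCmin/+ tumors and 2.70, 1.11 and 1.64 FPKM in APCmin/+;ieCtnnb1KO tumors. Knockout replicate 1 was above the lowest control, so these groups overlapped. The log2 difference of *Abcg8* was -0.68 ± 0.27 (SE, n = 3 per group), with a limma adjusted p of 0.336, an unadjusted p of 0.0415 and a permutation p of 0.2, and it was -0.45 without knockout replicate 2 and -0.94 without knockout replicate 1.

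In crypts the pair was far more abundant and did not separate the genotypes. *Abcg5* had 52.5, 72.7 and 91.8 FPKM in Wild type and 88.1, 71.3 and 72.2 FPKM in ieCtnnb1KO. *Abcg8* had 23.2, 33.3 and 47.8 FPKM in Wild type and 44.6, 31.7 and 31.7 FPKM in ieCtnnb1KO. For both genes Wild type replicate 1 was the lowest of the 6 libraries and Wild type replicate 3 the highest. The log2 differences were 0.12 ± 0.22 for *Abcg5* and 0.09 ± 0.27 for *Abcg8* (SE, n = 3 per group), with limma adjusted p of 0.957 and 0.981. Without Wild type replicate 1 they were -0.09 and -0.16, and *Abcg8* was at -0.07 without ieCtnnb1KO replicate 1. The ratio of *Abcg5* to *Abcg8* within a library was 1.92 to 2.28 over all crypts, 1.41 to 1.82 in APCmin/+ tumors and 1.06 to 1.35 in APCmin/+;ieCtnnb1KO tumors.

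**Figure D3:**
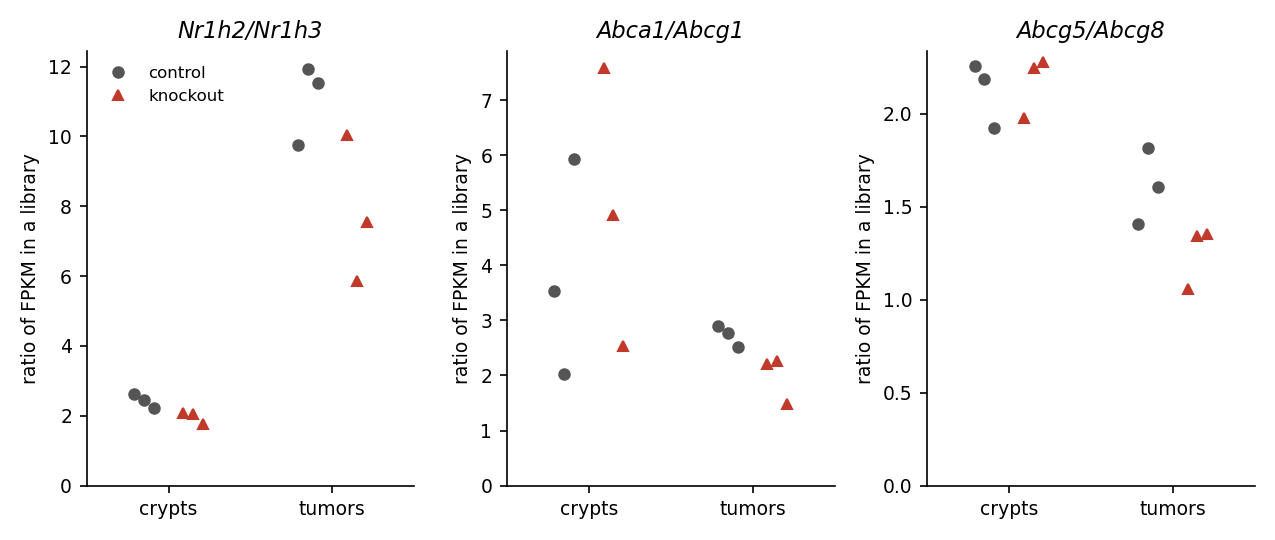
Ratio of FPKM within each library for the receptor pair and both transporter pairs, in crypts and tumors; circles are control libraries and triangles knockout libraries (n = 3 per group). The ratio of *Abcg5* to *Abcg8* is 1.41 to 1.82 in control tumors and 1.06 to 1.35 in knockout tumors, and the ratio of *Abca1* to *Abcg1* is 2.51 to 2.90 and 1.47 to 2.26.

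*Mylip* (ENSMUSG00000038175, chromosome 13, 45389742 to 45412022, plus strand) encodes IDOL, the ubiquitin ligase that marks the LDL receptor for degradation. It was the gene of the set, *Nr1h3* aside, with each knockout library on the same side of all controls in both tissues. Wild type crypts had 2.24, 3.03 and 5.19 FPKM, and ieCtnnb1KO crypts had 2.01, 1.35 and 1.96. The knockout libraries were all lower, replicate 1 by little, and Wild type replicate 3 was well above the other controls. The means were 3.49 ± 1.53 and 1.77 ± 0.370 FPKM (SD, n = 3), on 73 to 263 fragments. The log2 difference was -0.76 ± 0.28 (SE), with a limma adjusted p of 0.823, an unadjusted p of 0.0320 and an exact permutation p of 0.1. Without Wild type replicate 3 it was -0.47, and without replicate 1 it was -0.99. APCmin/+ tumors had 13.1, 12.4 and 15.7 FPKM, and APCmin/+;ieCtnnb1KO tumors had 12.1, 10.9 and 10.5. The tumor groups were separate by a small margin between control replicate 2 and knockout replicate 1. The means were 13.7 ± 1.77 and 11.2 ± 0.826 FPKM (SD, n = 3), and the log2 difference was -0.28 ± 0.12 (SE), with a limma adjusted p of 0.341 and an exact permutation p of 0.1. Without APCmin/+ replicate 3 it was -0.18, and without replicate 2 it was -0.35.

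*Srebf1* (ENSMUSG00000020538, chromosome 11, 60199089 to 60222581, minus strand) encodes SREBP1, a transcription factor for fatty acid synthesis genes. Wild type crypts had 16.2, 19.3 and 16.0 FPKM and ieCtnnb1KO crypts had 22.6, 14.9 and 19.7, with the groups overlapping. Tumors had 48.2, 59.3 and 61.6 FPKM in APCmin/+ and 54.4, 41.4 and 46.7 FPKM in APCmin/+;ieCtnnb1KO, also overlapping. The log2 difference was 0.13 ± 0.17 in crypts and -0.25 ± 0.14 in tumors (SE, n = 3 per group), with limma adjusted p of 0.935 and 0.442. Without ieCtnnb1KO replicate 1 the crypt value was near 0, at 0.0046, and without ieCtnnb1KO replicate 2 it was 0.30. The tumor value ran from -0.15 without APCmin/+;ieCtnnb1KO replicate 2 to -0.38 under quantile normalization. *Srebf1* shares 109 exon bases with *Rai1* on the opposite strand, and the use of strand in counting is not given in the sources used here.

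*Npc1l1* (ENSMUSG00000020447, chromosome 11, 6211013 to 6230143, minus strand) encodes the brush border importer of cholesterol, the target of ezetimibe. Wild type crypts had 97.6, 142 and 182 FPKM and ieCtnnb1KO crypts had 148, 108 and 203. The groups overlapped, with the lowest library a control and the highest a knockout. The knockout exceeded the control by 0.12 ± 0.30 on the log2 scale (SE, n = 3 per group), with a limma adjusted p of 0.974, and it turned to -0.01 under quantile normalization, to -0.12 without Wild type replicate 1 and to -0.11 without ieCtnnb1KO replicate 3. In tumors *Npc1l1* was near 0, at 0.138, 0 and 0.0150 FPKM in APCmin/+ and 0.0278, 0.140 and 0.0431 FPKM in APCmin/+;ieCtnnb1KO. These levels stand for 10, 0 and 1 fragments and for 2, 10 and 3 fragments, so no fold is given and a difference was not detectable at this depth.

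Levels per length of the 9 genes came in a different order in each tissue. In Wild type crypts the mean FPKM went from *Npc1l1* at 141 and *Abcg5* at 72.3 through *Abcg8* at 34.8, *Nr1h2* at 30.5, *Srebf1* at 17.2 and *Nr1h3* at 12.6 to *Abca1* at 3.53, *Mylip* at 3.49 and *Abcg1* at 1.02. Neighbours whose library ranges overlapped were *Abcg8* with *Nr1h2* and *Abca1* with *Mylip*. The order of means was the same in ieCtnnb1KO crypts, where *Srebf1* and *Nr1h3* overlapped and *Abca1* and *Mylip* did not. In APCmin/+ tumors the order was *Srebf1* at 56.4, *Nr1h2* at 35.9, *Abca1* at 22.3, *Mylip* at 13.7, *Abcg1* at 8.27, *Abcg5* at 5.04, *Nr1h3* at 3.26, *Abcg8* at 3.10 and *Npc1l1* at 0.0511, and the ranges of *Abcg5*, *Nr1h3* and *Abcg8* overlapped. In APCmin/+;ieCtnnb1KO tumors *Nr1h3*, at 4.93, stood above *Abcg5*, at 2.19, with no overlap, and *Abca1* and *Mylip* overlapped. The tables were normalized separately, so levels were not tested between tissues.

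Single libraries carried several of these genes up or down at once, in a different way in each tissue. In crypts, Wild type replicate 3 was the highest control for *Nr1h3*, *Nr1h2*, *Abca1*, *Abcg5*, *Abcg8*, *Mylip* and *Npc1l1*. The highest knockout for *Nr1h3*, *Nr1h2*, *Abca1*, *Abcg5*, *Abcg8*, *Mylip* and *Srebf1* was ieCtnnb1KO replicate 1. In tumors, APCmin/+ replicate 3 had the lowest *Nr1h3* and *Nr1h2* and the highest *Abca1*, *Abcg1*, *Abcg5*, *Abcg8*, *Mylip* and *Srebf1* of the controls. Among the tumor knockouts, replicate 1 had the lowest *Nr1h3* and the highest level of those same 6 genes and of *Nr1h2*. With values centred within each group, *Nr1h3* correlated with *Abcg5* at r = 0.88 in crypts and -0.87 in tumors, and with *Abcg8* at 0.88 and -0.96, over 6 libraries each. Its r was 0.97 and -0.69 with *Mylip*, 0.66 and -0.71 with *Abca1*, and 0.37 and -0.46 with *Nr1h2*. With *Abcg1* it was -0.27 and -0.89, with *Srebf1* 0.05 and -0.92, and with *Npc1l1* 0.74 in crypts. *Abcg5* correlated with *Abcg8* at 0.99 in crypts and 0.91 in tumors. Of all pairs among the tested genes of the set, 29 of 36 in crypts and 19 of 28 in tumors were above 0, with medians of 0.45 and 0.52. In tumors every pair with *Nr1h3* was below 0, and the only other pairs below 0 were *Nr1h2* with *Abca1* and *Nr1h2* with *Mylip*. These correlations describe 6 libraries with 2 group means removed, and genes in the same library share its cells and its scaling.

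Sums of cell type markers are set beside these values, and any shared order of libraries was picked out after the values were seen. In crypts, the sum of 10 enterocyte markers was 3702, 5484 and 8157 FPKM in Wild type and 7512, 5461 and 9029 FPKM in ieCtnnb1KO. That sum ranked the 6 crypt libraries in the order of *Npc1l1*, and Wild type replicate 1 was the lowest for it, for *Abcg5* and for *Abcg8*. The 10 enterocyte markers were all above a log2 difference of 0, with a median of 0.45, and no defining marker was at 0 in all 6 libraries. Of the 10, 0 had an adjusted or an unadjusted limma p under 0.05 (by voom, 0 and 1). Over all tested crypt genes, 5.85% had an unadjusted p under 0.05 by limma and 5.68% by voom. The 6 Paneth cell markers summed to 18980, 27817 and 52309 FPKM in Wild type and 20906, 18076 and 20775 FPKM in ieCtnnb1KO, with *Defa24* the most abundant and all 6 below 0, or 5 under quantile normalization, and Wild type replicate 3 was the highest as it was for *Mylip*. In Wild type replicate 3, *Defa24* alone had 32836 FPKM. Of the 6 Paneth cell markers, 1 had an unadjusted limma p under 0.05 (3 by voom) and 0 an adjusted one. The unadjusted shares over all crypt genes were 5.85% by limma and 5.68% by voom. *Mmp7* at -0.72 ± 0.19 and *Lyz1* at -0.56 ± 0.33 (SE), both chosen after their values were seen, were lower in all 3 knockout crypts, with limma adjusted p of 0.757 and 0.887. The 12 macrophage markers summed to 46.5, 51.9 and 51.5 FPKM in Wild type crypts and 42.3, 49.2 and 43.2 FPKM in ieCtnnb1KO crypts, with overlapping groups. Of the 8 tested there, 2 were above and 6 below 0, with a median of -0.44 (-0.56 by voom). None of them had an unadjusted p under 0.05 by limma or voom. The part of these cell types in the results was not tested.

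In tumors, of the sums of 12 marker lists, 4 were higher in every knockout library than in every control, 1 (stomach markers) was lower in every one and 7 overlapped. Of single genes tested in tumors, 11.4% lay wholly above and 10.6% wholly under the controls. In crypts all 12 sums overlapped. Epithelial markers summed to 3151, 3090 and 2802 FPKM in APCmin/+ and 3610, 3558 and 3678 FPKM in APCmin/+;ieCtnnb1KO, with all 5 genes above 0, or 3 of 5 under quantile normalization. The 6 colonocyte markers, led by *Car1*, summed to 179, 124 and 137 FPKM and to 218, 363 and 263 FPKM. The 6 fibroblast markers, led by *Col1a1*, summed to 345.1, 216 and 208 FPKM and to 345.9, 452 and 358 FPKM, separate by a thin margin. The 4 endothelial markers, led by *Cdh5*, summed to 30.9, 29.0 and 26.1 FPKM and to 33.6, 31.9 and 31.1 FPKM, separate by a margin as thin. Of these 4, *Pecam1*, at 0.47, was higher in all 3 knockout tumors, while *Cdh5* at 0.04, *Vwf* at 0.05 and *Kdr* at -0.09 overlapped, and the list median was 0.05. Macrophage markers, of interest because macrophages express *Abca1*, *Abcg1* and *Nr1h3*, summed to 702, 490 and 721 FPKM in controls and 696, 890 and 568 FPKM in knockouts. These sums overlapped, although 11 of the 12 macrophage markers were above 0, or 9 under other scalings, with a median of 0.22 and *Lyz2*, at -0.01, the most abundant. *C1qa*, chosen after its values were seen, was higher in all 3 knockout tumors at 0.72 ± 0.21 (SE), with an unadjusted p of 0.0109 and a limma adjusted p of 0.282. *C1qc*, chosen in the same way, was at 0.56 ± 0.22 (SE) with overlapping groups, an unadjusted p of 0.0395 and a limma adjusted p of 0.334. None of the 5 lists summed here had a marker at 0 in all 6 libraries, and 0 of their 33 genes had an adjusted p under 0.05 by limma or voom. At an unadjusted p under 0.05 there were 10 by limma (30.3%, against 14.5% of all genes) and 12 by voom (36.4%, against 15.2%). The part of any of these cell types in the results was not tested.

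**Figure D4:**
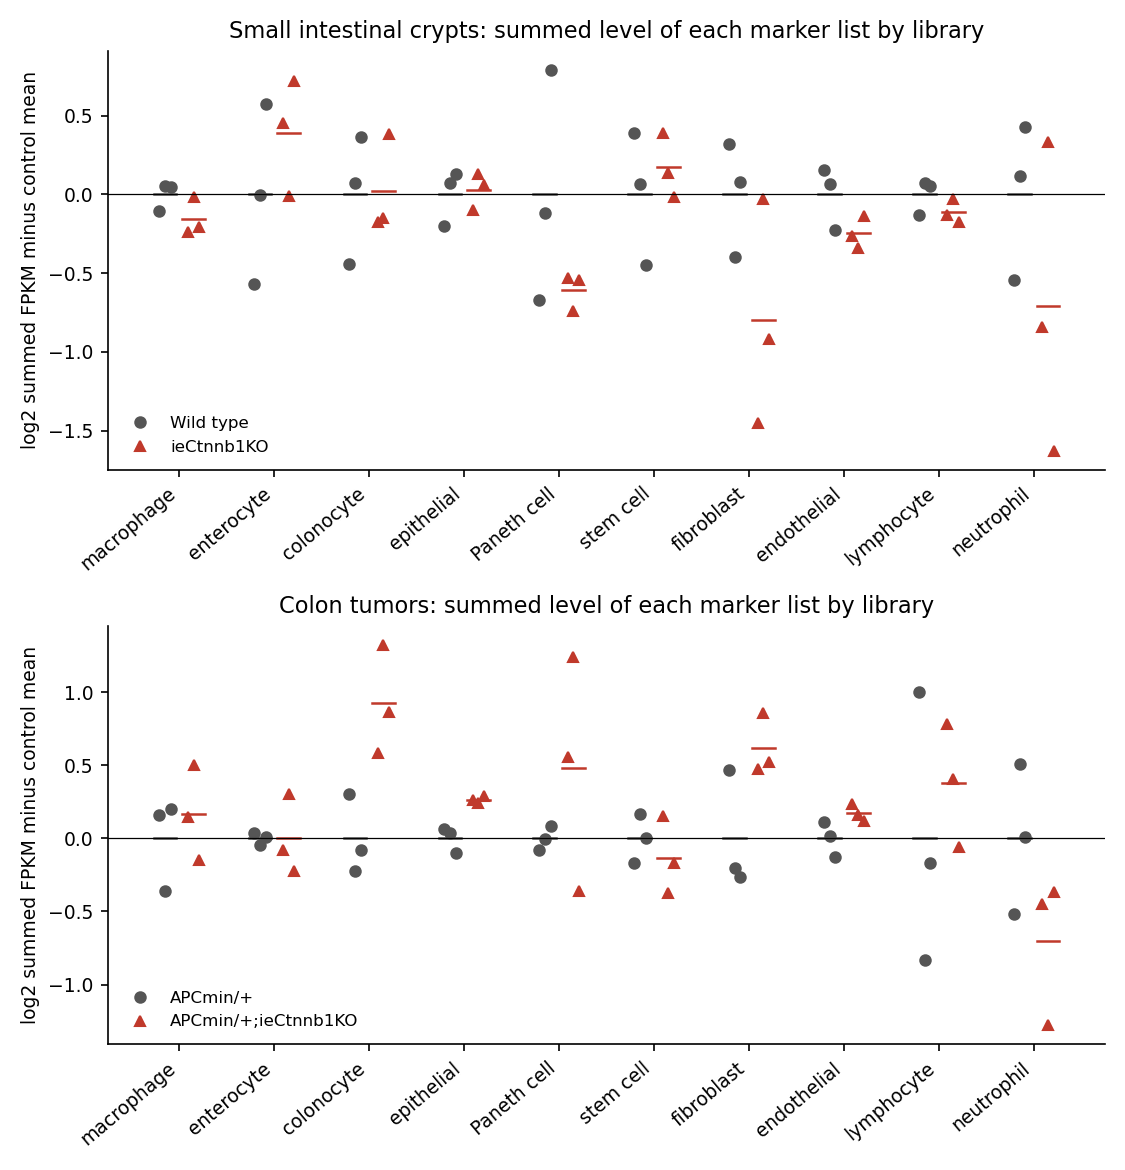
Summed FPKM of each marker list in each library as a log2 difference from the control mean, in crypts (upper panel) and tumors (lower panel); circles are controls, triangles knockouts and short lines group means (n = 3). Colonocyte, epithelial, fibroblast and endothelial sums of all knockout tumors lie above those of the controls, and the crypt enterocyte sums overlap.

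Lists of genes around the receptors were mixed as well, and neither limma nor voom called any of their genes at an adjusted p under 0.05. At an unadjusted p under 0.05, limma counted 1 of the 54 tested genes of these 5 lists in crypts (1.85%, against 5.85% of all genes) and 7 of 55 in tumors (12.7%, against 14.5%). By voom it was 2 in crypts (3.70%, against 5.68%) and 9 in tumors (16.4%, against 15.2%). Under other scalings limma counted 0 to 2 in crypts (0% to 3.70%, against 4.94% to 5.56%) and 10 to 12 in tumors (18.2% to 21.8%, against 14.3% to 14.5%). Of 9 receptor partners and cofactors, 8 were tested in each tissue. In crypts 2 were above and 6 below 0, with a median of -0.12. *Rxra*, a partner of LXR on DNA, differed by 0.06 in crypts and 0.27 in tumors, with overlapping groups. In tumors 3 were above and 5 below 0, with a median of -0.11, and *Ncoa6*, a coactivator, was at -0.30 with an unadjusted p of 0.0459 and a limma adjusted p of 0.340.

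Of the 5 oxysterol enzymes, 2 passed the filter in crypts and 3 in tumors. In crypts both were above 0, *Sult2b1*, a sterol sulfotransferase, at 0.32 and *Cyp27a1*, which makes 27-hydroxycholesterol, at 0.09. APCmin/+ tumors had 49.8, 59.7 and 68.5 FPKM of *Cyp27a1*, and APCmin/+;ieCtnnb1KO tumors had 41.8, 31.0 and 44.8. Each knockout tumor was lower than every control, with means of 59.4 ± 9.36 and 39.2 ± 7.24 FPKM (SD, n = 3). On the log2 scale this is -0.60 ± 0.18 (SE), with an unadjusted p of 0.0121 and a limma adjusted p of 0.286. *Ch25h*, which makes 25-hydroxycholesterol, was at 0.32 ± 0.43 (SE) in tumors, with overlapping groups.

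Among 19 further LXR targets, 14 were tested in crypts and 15 in tumors. In crypts 6 were above 0 (5 to 7 under other scalings) and 8 below, with a median of -0.03, and 0 had groups that did not overlap, against 6.79% of all tested genes wholly above and 5.15% wholly under. *Scd1* and *Scd2*, desaturases of fatty acids, were at -0.51 ± 0.24 and 0.43 ± 0.60, and *Mertk*, a receptor for apoptotic cells, was at 0.36 ± 0.31 (SE). *Apoe*, the lipoprotein ligand, was at -0.62 ± 0.39 in crypts. In tumors 6 were above and 9 below 0, with a median of -0.11. *Apoe* had 368, 251 and 305 FPKM in APCmin/+ tumors and 486, 563 and 362 FPKM in APCmin/+;ieCtnnb1KO tumors. Knockout replicate 3 was under the highest control, and the log2 difference was 0.60 ± 0.22 (SE), with an unadjusted p of 0.0288 and a limma adjusted p of 0.320. *Gramd1b*, which carries cholesterol from the plasma membrane, was lower in all 3 knockout tumors, at -0.33 ± 0.14 (SE), with a limma adjusted p of 0.342. *Lpcat3*, a phospholipid remodelling enzyme chosen after its values were seen, also had each knockout tumor under all controls, at -0.14. *Scd1* was at -0.38 ± 0.17 and *Smpdl3a* at 0.43 ± 0.19 (SE) in tumors.

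Of the sterol uptake and lipoprotein genes, 13 of 16 tested in crypts were above 0 (10 to 13 under other scalings), with a median of 0.07. *Mttp*, which loads lipid onto apolipoprotein B and was chosen after its values were seen, had 154, 180 and 164 FPKM in Wild type and 257, 188 and 284 FPKM in ieCtnnb1KO. It was higher in all 3 knockouts, at 0.53 ± 0.19 (SE), with an unadjusted p of 0.0254 and a limma adjusted p of 0.806. *Cd36*, a fatty acid receptor, and *Apoa4*, a lipoprotein component that is also among the enterocyte markers, were at 0.72 ± 0.51 and 0.57 ± 0.51, and *Vldlr* was at -0.29 ± 0.19 (SE), all with overlapping groups. In tumors 6 were above 0 (5 under other scalings) and 9 below, with a median of -0.05. *Npc1*, the lysosomal cholesterol exporter, was lower in all 3 knockout tumors at -0.28 ± 0.13, and its partner *Npc2*, chosen after its values were seen, was higher in all 3 at 0.26 ± 0.10 (SE), with limma adjusted p of 0.388 and 0.320. *Soat1*, which esterifies cholesterol and was chosen after its values were seen, was lower in all 3 at -0.15 ± 0.07 (SE), with a limma adjusted p of 0.386. *Lipa* was at 0.30 and *Apob* at 0.39, with overlapping groups.

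The SREBP2 pathway, which is switched on when sterol is scarce, had 14 of 14 genes tested in each tissue. In both, 4 were above and 10 below 0, with medians of -0.03 in crypts and -0.04 in tumors, and other scalings put 2 to 7 above 0 in crypts and 1 to 4 in tumors. In crypts *Insig1* was at 0.13, *Dhcr7* at 0.12 and *Insig2* at -0.20, all with overlapping groups. APCmin/+ tumors had 20.3, 22.3 and 20.8 FPKM of *Dhcr7*, an enzyme of the last steps of cholesterol synthesis, and APCmin/+;ieCtnnb1KO tumors had 17.7, 15.2 and 15.2. *Fdps*, which makes farnesyl diphosphate, had 2.28, 2.75 and 2.02 FPKM and 1.70, 1.35 and 1.71 FPKM in the same groups. Both were lower in each knockout library than in any control. Their log2 differences were -0.39 ± 0.09 and -0.45 ± 0.16 (SE), with unadjusted p of 0.00456 and 0.0276 and limma adjusted p of 0.269 and 0.317. *Scap* was at 0.08 in tumors and *Cyp51* at 0.09, which turns to -0.03 under quantile normalization.

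**Figure D5:**
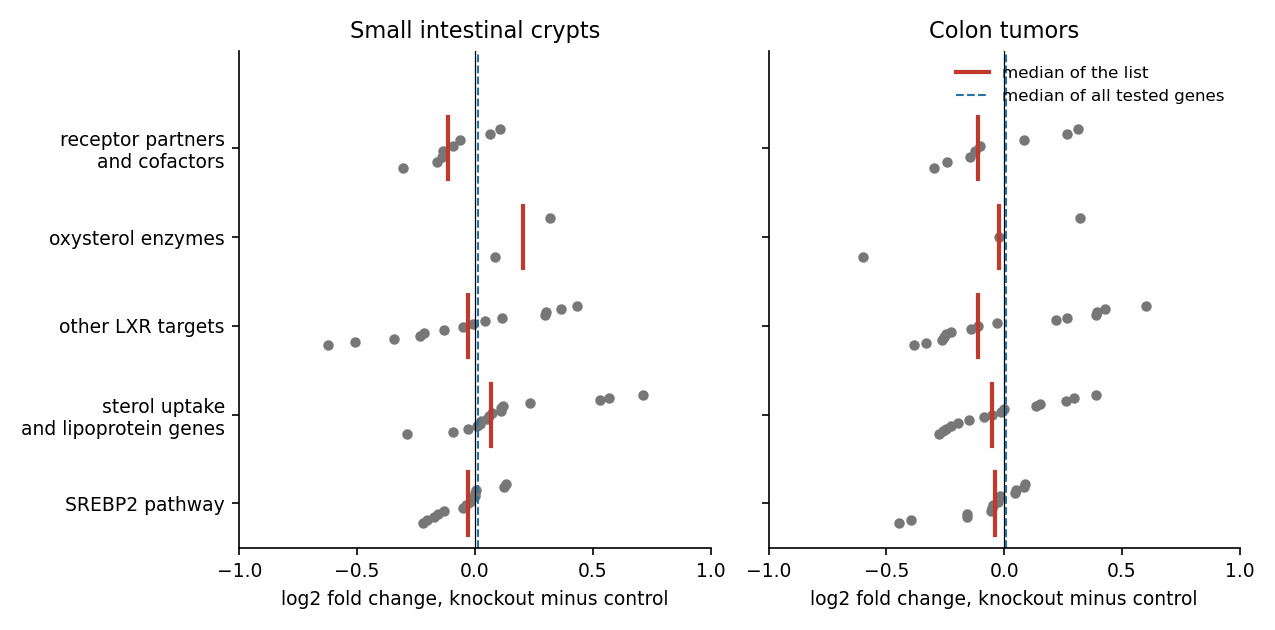
Log2 difference, knockout minus control, of each tested gene in 5 lists of genes around the LXR pathway, in crypts (left) and tumors (right); grey points are genes, red lines list medians and the dashed line the median of all tested genes. List medians run from -0.12 to 0.20 in crypts and from -0.11 to -0.02 in tumors, beside 0.01 for all tested genes in each tissue.

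Genes whose pattern was most like that of *Nr1h3* were ranked by Pearson r over the 12 libraries, centred within each table, among 13369 genes tested in both. The first 5 were *Mgst3* at 0.954, *Cryl1* at 0.946, *Cideb* at 0.944, *Ckmt1* at 0.943 and *Fuom* at 0.942. *Mgst3*, a microsomal glutathione transferase, had means of 149 and 190 FPKM in control and knockout crypts and 70.6 and 105 FPKM in control and knockout tumors. *Cideb*, a protein of lipid droplets and lipoprotein assembly, had means of 16.4 and 24.6 FPKM in crypts and 1.61 and 2.99 FPKM in tumors. Of the LXR genes tested in both tissues, *Nr1h2* had an r of 0.27 with *Nr1h3*, and the others were below 0, at -0.36 for *Srebf1*, -0.44 for *Abcg8*, -0.47 for *Mylip*, -0.57 for *Abca1*, -0.57 for *Abcg5* and -0.69 for *Abcg1*. *Abcg1* was at percentile 2.69 of all genes compared, and *Nr1h2* at percentile 70.5. These correlations contain the knockout contrast that chose the set and are a description.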

How the data were processed

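RNA was measured in 12 libraries, grouped by the tissue and genotype of the labels. The deposited values are FPKM per gene and library, in one table per tissue, and the authors' processing notes name cutadapt, HISAT2, Cufflinks 2.2.1 and DESeq2 with build mm10, whereas the methods name featureCounts. The use of strand in counting is not given in the sources used here. Gene positions were checked against GENCODE M21 (GRCm38). Whole fragments were recovered from FPKM and gene length for 100% of values (tolerance 0.05). The libraries were already scaled: taken against geometric means over a table, the 6 libraries had equal median ratios (1.01 in crypts, 1.00454 in tumors).

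Knockout and control were compared within each tissue by limma (version 3.58.1, under R 4.3.3), fitted to log2(FPKM + 0.5) with a variance trend, over genes with a mean of at least 0.5 FPKM and with Benjamini-Hochberg adjustment over all of them at 0.05. This scale understates differences of genes at low FPKM. Each gene of the set but *Nr1h3* also had an exact permutation test (two-sided) of the difference in means, for which 0.1 is the smallest p. It gave 0.1 to 1 over 8 genes in crypts, with 0.1 for *Mylip*, 0.2 for *Nr1h2* and *Abcg1*, 0.5 for *Abca1*, 0.6 for *Srebf1*, 0.7 for *Npc1l1*, 0.9 for *Abcg5* and 1 for *Abcg8*. In tumors it gave 0.1 to 0.8 over 7 genes, with 0.1 for *Abca1*, *Abcg5* and *Mylip*, 0.2 for *Abcg8* and *Srebf1*, 0.5 for *Abcg1* and 0.8 for *Nr1h2*. The fit was tested on simulated data. No test was made over the set or a list, and no p was adjusted over the list alone.

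Every gene of the set was named. Genes of the pathway lists were named from among the 2 per direction, list and tissue with the largest absolute log2 difference among tested genes, except where said otherwise. The 5 genes most like *Nr1h3* were named by correlation. The set and the lists were chosen with earlier results of these data known. Lists were receptor partners and cofactors, oxysterol enzymes, other LXR targets, sterol uptake and lipoprotein genes, the SREBP2 pathway and cell type markers. Alternatives were pseudocounts of 0.1 and 1, no filter, a mean of at least 1 FPKM, the same total per library with and without the 50 highest genes, quantile normalization, no variance trend, voom on recovered fragments, the replicate number as a block, and leaving out each library in turn.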

Additional observations from a re-analysis of the deposited data

How the results depend on the processing

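Of the 16 alternatives, 12 can move a log2 difference, and 6 of these leave out a library. Over those 12, and with *Nr1h3* set aside, direction was kept in 90 of 96 values in crypts and 82 of 84 in tumors. Under quantile normalization, *Npc1l1* in crypts turned to -0.0064 and *Nr1h2* in tumors to -0.060. Leaving out a library turned *Abcg5* to -0.088, *Abcg8* to -0.16 and *Npc1l1* to -0.12 in crypts (without Wild type replicate 1), *Abcg8* to -0.07 (without ieCtnnb1KO replicate 1), *Npc1l1* to -0.11 (without ieCtnnb1KO replicate 3), and *Nr1h2* to -0.0014 in tumors (without APCmin/+;ieCtnnb1KO replicate 1). With each library left out in turn, *Abcg5* ran from -0.088 to 0.31, *Abcg8* from -0.16 to 0.35 and *Npc1l1* from -0.12 to 0.35 in crypts, and *Nr1h2* from -0.0014 to 0.16 in tumors. The number of genes called was 0 in tumors except for 1 with no variance trend (*Mir3473e*), and the cause was not tested. Leaving out each library gave 0 to 3 genes called in crypts, with the 3 (*Pgc*, *Gkn1* and *Gkn2*) without Wild type replicate 3, and 0 in tumors. The number of genes of the set with groups that do not overlap, in either direction, was 1 to 3 in crypts and 3 to 6 in tumors over the same settings, in which fewer libraries make separation easier. No gene of the set, *Nr1h3* not being tested, was called under any of these alternatives. *Abcg1* in crypts had no value under a mean of at least 1 FPKM.

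With the replicate number as a replicate block, limma called 0 genes in either tissue, with 732 in crypts and 1882 in tumors at an unadjusted p under 0.05. The lowest adjusted values were 0.386 in crypts and 0.427 in tumors. The values do not bear out a pairing: libraries with the same number correlated, after removing group means, between -0.12 and 0.05 across genes.

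Depth limits *Abcg1* in crypts (32 to 89 fragments), *Mylip* in crypts (73 to 263 fragments), *Nr1h3* in tumors (111 to 221 fragments), *Abcg5* and *Abcg8* in tumors (65 to 255 fragments) and *Npc1l1* in tumors (0 to 10 fragments).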

Other observations

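The remaining marker lists are given as summed FPKM. Fat cell markers summed to at most 0.0692 FPKM in crypts and 0.139 FPKM in tumors, with *Adipoq* and *Lep* at 0 in all 12 libraries. Small intestinal enterocyte markers summed to 26.3 to 38.0 FPKM in tumors, where *Slc5a1* was the most abundant and *Npc1l1* was near 0. Neutrophil markers were nearly absent from crypts, at 0.0592 to 0.246 FPKM with *S100a8* and *Ly6g* at 0, and summed to 222, 451 and 319 FPKM in APCmin/+ tumors and 232, 131 and 246 FPKM in APCmin/+;ieCtnnb1KO tumors. These sums overlapped, while *S100a8* at -0.98 ± 0.38 and *S100a9* at -1.01 ± 0.40 were lower and *Ly6g* at 0.73 ± 0.19 (SE, n = 3 per group) was higher in all 3 knockout tumors, with unadjusted p of 0.0383, 0.0399 and 0.00745 and limma adjusted p of 0.331, 0.335 and 0.270. All 3 were chosen after their values were seen. Lymphocyte marker sums overlapped between the groups of each tissue, at 45.6 to 54.1 FPKM in crypts and 73.0 to 260 FPKM in tumors. In crypts, *Cd3d* at 0.44 ± 0.17 was higher and *Jchain* at -0.45 ± 0.14 (SE, n = 3 per group) lower in all 3 knockouts. Their unadjusted limma p were 0.0380 and 0.0161, and their limma adjusted p 0.844 and 0.797. Both were chosen after their values were seen, and *Cd3e*, *Cd8a*, *Cd79a* and *Ms4a1* overlapped. Tumor Paneth cell markers summed to 1359 to 4117 FPKM and stem cell markers to 62.2 to 90.7 FPKM, both with overlapping groups.

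In crypts, colonocyte markers summed to 458 to 810.4 FPKM with overlapping groups. *Krt20* led with a mean of 513 FPKM, while *Car1* and *Aqp8* were under the filter, so this sum is mainly that of *Krt20*. Fibroblast markers summed to 1.73 to 5.92 FPKM in crypts. Of the 4 colonocyte markers tested there, *Car4* and *Slc26a3*, chosen after their values were seen, were higher in all 3 knockouts at 0.92 ± 0.21 and 0.46 ± 0.15 (SE, n = 3 per group), with unadjusted p of 0.00356 and 0.0188 and limma adjusted p of 0.728 and 0.800, and *Krt20* and *Ms4a12* overlapped at -0.08 and -0.20. Stomach markers summed to 84.4, 68.3 and 13.9 FPKM in Wild type crypts and 12.3, 16.3 and 9.94 FPKM in ieCtnnb1KO crypts, and to 28.9 to 34.5 FPKM in APCmin/+ tumors and 13.4 to 22.7 FPKM in APCmin/+;ieCtnnb1KO tumors. Of these, 5 were tested in crypts, all below 0 with a median of -1.84. *Gkn1*, *Gkn2* and *Muc6* passed the filter only through their control values, with knockout means of 0, 0 and 0.0757 FPKM. Their direction was thus set in part by the filter, and the counts are a description. *Atp4a*, under the filter, was higher in each knockout crypt library, with means of 0.149 FPKM in control and 0.418 in knockout. Each of the 5 had an unadjusted limma p under 0.05 (2 by voom), against 5.85% of all genes, and 0 an adjusted one. *Gkn1* and *Gkn2* were at 0 in every crypt library but Wild type replicates 1 and 2. In tumors 4 were tested, all below 0 with a median of -0.41. Of these, 2 had an unadjusted limma p under 0.05, against 14.5% of all genes.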
